A study of Mus musculus with 23 samples.

Results

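*Sox9*, *Sox4*, *Krt7*, *Krt19*, *Krt23*, *Epcam*, *Cd24a*, *Muc1* and *Spp1* are genes of bile duct cells and of the duct-like cells that appear in injured liver. They were taken by name, and all 9 were found by symbol among the 27179 genes counted in mouse liver. The transcription factor gene *Sox9* was higher in every *Braf* mutant liver than in every control liver. The duct gene *Muc1* was called lower in mutant livers that kept a working *Icmt* allele. *Krt19* was called lower there at the threshold, a call lost under 14 of 25 alternatives, among them a stricter fold limit. In the 3 mutant livers with both *Icmt* alleles floxed, *Spp1*, *Sox4*, *Cd24a*, *Krt23* and *Epcam* were called higher than in controls together with *Sox9*. With a circadian clock score as a covariate edgeR kept only the *Sox9* call among them, and DESeq2 called 4 of the 9 genes. The *Epcam* call was also lost without mouse BG38.

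Bile duct cells, or cholangiocytes, line the ducts that drain bile and adjust its water and bicarbonate. They carry keratins 7 and 19, the adhesion protein EPCAM and the transcription factor SOX9, whereas hepatocytes carry keratins 8 and 18. After injury, small ducts multiply in a ductular reaction, and hepatocytes near the portal tracts can themselves switch on *Sox9*, so that *Sox9* marks both ducts and hepatocytes that have gained duct features.

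RNA was sequenced from liver tissue without visible tumors of 15 female mice. The 6 Ctrl mice were *Trp53* flx/flx and *Icmt* flx/+ with wild-type *Braf*. The 6 ABpIF/+ mice had the same *Trp53* and *Icmt* alleles and a BrafCA allele, which gives BRAF V600E after Cre has acted. The 3 ABpIF/F mice carried that *Braf* allele with *Trp53* flx/flx and *Icmt* flx/flx, and were all the mice of this genotype that the study obtained. The sample labels write the *Braf* genotype of the mutants as BRAF +/+, and the BrafCA allele comes from the design text and methods. All groups carry Alb-Cre, so that *Trp53* loss and 1 or more floxed *Icmt* alleles are common to controls and mutants. The albumin promoter of this Cre is active in hepatocytes and, before birth, in the hepatoblasts from which bile ducts also form. The study describes the ABpIF/F mice as of different ages, but neither the labels nor the methods tie an age to a mouse named here, so that differences among these 3 mice and their ages cannot be told apart. The study also reports liver tumors in every ABpIF/F mouse, with a burden that went with age. It reports visible liver tumors in only a part of the ABpIF/+ mice. Neither the labels nor the methods tie a tumor burden to a mouse named here. *Icmt* genotype and tumors elsewhere in the liver thus cannot be told apart in comparisons with ABpIF/F mice, and the part of tumors was not tested. The time of day of collection was not given in the sources used here.

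Each mouse had 24742910 to 32262649 counts on genes. *Icmt* itself, floxed on both alleles in ABpIF/F mice, had 30.8 ± 2.72 CPM (the counts of a gene as a share of its TMM-scaled library; mean ± SD, n = 6) in Ctrl, 32.7 ± 3.49 (n = 6) in ABpIF/+ and 15.8 ± 0.711 (n = 3) in ABpIF/F livers, without overlap between ABpIF/F and the other mice. All 10 hepatocyte markers were detected in every group, with summed levels of 101740 to 134920 CPM in Ctrl, 177651 to 243707 in ABpIF/+ and 125770 to 219804 in ABpIF/F livers. The sum does not describe each marker. In ABpIF/+ vs Ctrl 2 of the 10 were called higher and 0 lower, with a median log2 fold change of 0.22. In ABpIF/F vs Ctrl 1 was called higher and 2 lower, with a median of -0.26. The labels give 5 of the 6 Ctrl mice another strain text than the mutants, and only Ctrl mouse BG3 shares that of the mutants. A score of circadian clock genes, the mean log2 CPM of 5 genes that peak around dawn minus that of 7 that peak later in the day, lay between -5.03 and -3.44 in 11 of the 12 Ctrl and ABpIF/+ mice. It was 0.132 in Ctrl mouse malpa387 and -1.20, 1.57 and -0.0488 in the 3 ABpIF/F mice. Strain text and clock score therefore stand apart together with the groups, and their part in the results below was not tested beyond the fits that are given with them.

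*Sox9* (Entrez 20682; chromosome 11 of GRCm38, 112782224 to 112787760) had 48 to 120 counts in Ctrl mice, 313 to 737 in ABpIF/+ mice and 699 to 1774 in ABpIF/F mice. Its lowest, median and highest levels were 1.97, 2.99 and 3.85 CPM in Ctrl and 11.8, 17.2 and 25.1 CPM in ABpIF/+ livers. In ABpIF/F livers it had 22.8 CPM in BG183, 44.0 in BG90 and 49.1 in BG38. Neither mutant group overlapped with Ctrl, whereas BG183 lay within the range of the ABpIF/+ mice. The log2 fold change was 2.61 ± 0.23 (SE) in ABpIF/+ vs Ctrl, a 6.10-fold increase (adjusted p = 8.84e-08), and 3.70 ± 0.26 in ABpIF/F vs Ctrl, a 13.0-fold increase (adjusted p = 1.59e-08). Both comparisons use the same Ctrl mice. Both calls were kept under each of 25 alternatives. The fit on mice with the strain text of the mutants, which leaves BG3 as the lone Ctrl mouse, gave log2 fold changes of 3.20 and 4.24. The edgeR fit with the clock score as a covariate gave 2.63 and 3.28 (adjusted p = 8.37e-08 and 0.000296). A gene was called when its adjusted p was under 0.01 and its change at least 2-fold. In bulk RNA, a change in the number of duct cells and a change in the RNA of each cell cannot be told apart.

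**Figure D1:**
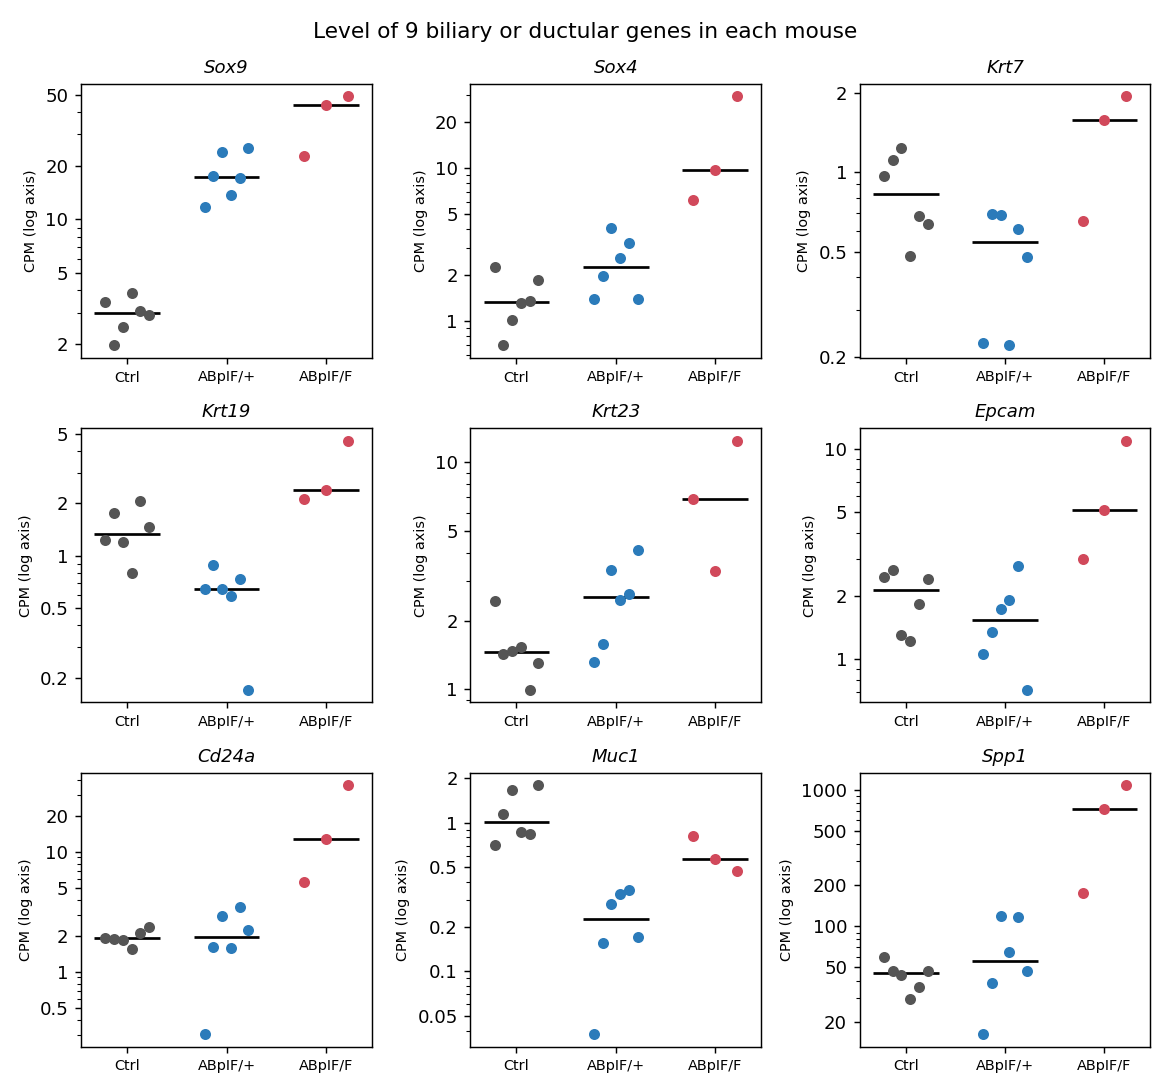
Levels of the 9 genes in each mouse, as CPM on log axes that differ between panels; points are mice of the 6 Ctrl, 6 ABpIF/+ and 3 ABpIF/F animals and horizontal lines are group medians. *Sox9* separates both mutant groups from Ctrl (medians of 2.99, 17.2 and 44.0 CPM), while *Krt19* and *Muc1* are lowest in ABpIF/+ livers.

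The difference between the mutant groups in *Sox9* was smaller, with a log2 fold change of -1.09 ± 0.25 in ABpIF/+ vs ABpIF/F (adjusted p = 0.00405). It was under 2-fold without BG55, BG88, BG90 or BG38, at -0.99, -0.99, -0.99 and -0.88. A fit on these 2 groups alone gave -1.11 with an adjusted p of 0.0283. The fit with the clock score as a covariate did not call it (-0.65, adjusted p = 0.458). Nor did the fit on mice with the strain text of the mutants (-1.05). All mutants share this text, so that fit leaves out only Ctrl mice and cannot show a part of strain here.

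*Sox4* (Entrez 20677; chromosome 13, 28948919 to 28953713) encodes another SOX factor, which acts with SOX9 in bile duct formation. Its lowest, median and highest levels were 0.697, 1.34 and 2.27 CPM in Ctrl and 1.40, 2.28 and 4.07 CPM in ABpIF/+ livers, and the groups overlapped. The ABpIF/F mice had 6.20 CPM in BG183, 9.72 in BG90 and 29.7 in BG38, all above every other mouse. The log2 fold change was 0.78 ± 0.40 in ABpIF/+ vs Ctrl (adjusted p = 0.197), 3.41 ± 0.45 in ABpIF/F vs Ctrl (adjusted p = 4.31e-05) and -2.64 ± 0.44 in ABpIF/+ vs ABpIF/F (adjusted p = 0.000488). *Sox4* was thus called vs Ctrl in ABpIF/F livers and not in ABpIF/+ livers, and the difference between the mutant groups was itself called.

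*Krt19* (Entrez 16669; chromosome 11, 100140810 to 100148665) and *Krt7* (Entrez 110310; chromosome 15, 101411043 to 101430313) encode the intermediate filament proteins that distinguish duct cells from hepatocytes. *Krt19* had a lowest, median and highest level of 0.802, 1.34 and 2.05 CPM in Ctrl and 0.171, 0.643 and 0.890 CPM in ABpIF/+ livers. The ABpIF/F mice had 2.12, 2.39 and 4.57 CPM, above every Ctrl and ABpIF/+ mouse. In ABpIF/+ vs Ctrl it was called lower (log2 fold change -1.21 ± 0.34, adjusted p = 0.00912), with an overlap of the groups between 0.802 and 0.890 CPM. This call stands at the threshold. It was lost without malpa387, BG3, malpa454, malpa459, malpa462, BG55, BG31, BG88, BG175, BG30 or BG90, with log2 fold changes of -1.25, -1.14, -1.25, -1.07, -1.20, -1.22, -1.22, -1.20, -1.30, -1.01 and -1.21 in that order.

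In ABpIF/F vs Ctrl *Krt19* had a log2 fold change of 1.10 ± 0.37 and was not called (adjusted p = 0.0431). In ABpIF/+ vs ABpIF/F it was called lower, at -2.31 ± 0.38 (adjusted p = 0.00017). *Krt7* was near the lower end of detection, with 6 to 19 counts per ABpIF/+ mouse. Its lowest, median and highest levels were 0.481, 0.826 and 1.24 CPM in Ctrl and 0.221, 0.543 and 0.696 CPM in ABpIF/+ livers, and BG183, BG90 and BG38 had 0.653, 1.57 and 1.94 CPM. The groups overlapped in each comparison of *Krt7*, and the edgeR test used here called it in none, with adjusted p = 0.144 in ABpIF/+ vs Ctrl, 0.332 in ABpIF/F vs Ctrl and 0.0173 in ABpIF/+ vs ABpIF/F. The last comparison was called without BG183 (log2 fold change -1.85, adjusted p = 0.00565), by DESeq2 (-1.53, adjusted p = 0.00341) and by the quasi-likelihood form of edgeR 4 (-1.52, adjusted p = 0.00842).

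*Muc1* (Entrez 17829; chromosome 3, 89229057 to 89233381) encodes a mucin of the apical membrane of duct epithelium. It had a lowest, median and highest level of 0.707, 1.01 and 1.79 CPM in Ctrl and 0.0377, 0.226 and 0.352 CPM in ABpIF/+ livers, which did not overlap. In ABpIF/F livers it had 0.816, 0.572 and 0.471 CPM in BG183, BG90 and BG38. It was called lower in ABpIF/+ vs Ctrl, with a log2 fold change of -2.37 ± 0.42, a 5.16-fold decrease (adjusted p = 0.000128), on 1 to 11 counts per ABpIF/+ mouse. *Muc1* was the only one of the 9 genes with a fitted decrease in ABpIF/F vs Ctrl, and this was not called (log2 fold change -0.91 ± 0.47, adjusted p = 0.234). Its difference between the mutant groups was not called either (-1.45 ± 0.49, adjusted p = 0.0405).

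*Epcam* (Entrez 17075; chromosome 17, 87635979 to 87651129), the surface adhesion gene by which duct cells are sorted, did not differ detectably between ABpIF/+ and Ctrl livers. Its lowest, median and highest levels were 1.22, 2.13 and 2.67 CPM in Ctrl and 0.716, 1.54 and 2.78 CPM in ABpIF/+ livers (log2 fold change -0.31 ± 0.34, adjusted p = 0.659). In ABpIF/F livers it had 3.00, 5.11 and 11.0 CPM in BG183, BG90 and BG38, all above the other mice. It was called higher in ABpIF/F vs Ctrl (log2 fold change 1.69 ± 0.38, adjusted p = 0.00271) and lower in ABpIF/+ vs ABpIF/F (-1.99 ± 0.38, adjusted p = 0.000739). Without BG38 these became 1.03 (adjusted p = 0.105) and -1.34 (adjusted p = 0.0261), and neither was called.

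*Krt23* (Entrez 94179; chromosome 11, 99477974 to 99493137), a keratin gene that liver epithelium switches on in injury, had a lowest, median and highest level of 0.995, 1.46 and 2.46 CPM in Ctrl and 1.32, 2.55 and 4.13 CPM in ABpIF/+ livers. It had 6.92, 3.32 and 12.5 CPM in BG183, BG90 and BG38. The ABpIF/F mice lay above all Ctrl mice, and BG90 within the range of the ABpIF/+ mice. The log2 fold change was 0.75 ± 0.32 in ABpIF/+ vs Ctrl (adjusted p = 0.094), 2.30 ± 0.36 in ABpIF/F vs Ctrl (adjusted p = 7.88e-05) and -1.55 ± 0.35 in ABpIF/+ vs ABpIF/F (adjusted p = 0.00341). The last call was lost without BG38 (-0.99, adjusted p = 0.0949).

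*Cd24a* (Entrez 12484; chromosome 10, 43578284 to 43584265) encodes a small surface glycoprotein of duct and progenitor cells, which B cells, neutrophils and red cell precursors also carry. It had 1.54 to 2.35 CPM in Ctrl livers, with a median of 1.91, and 0.302 to 3.49 CPM in ABpIF/+ livers, with a median of 1.94. Its ABpIF/F levels were 5.61, 12.8 and 36.1 CPM in BG183, BG90 and BG38, each above all other mice. The log2 fold change was 0.06 ± 0.48 in ABpIF/+ vs Ctrl (adjusted p = 1), where the sign turned without BG31 (-0.06) or BG175 (-0.19). It was 3.22 ± 0.53 in ABpIF/F vs Ctrl (adjusted p = 0.000529) and -3.16 ± 0.53 in ABpIF/+ vs ABpIF/F (adjusted p = 0.000738).

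*Spp1* (Entrez 20750; chromosome 5, 104435118 to 104441050) encodes osteopontin, a secreted phosphoprotein of duct epithelium that macrophages can also make in quantity. Its lowest, median and highest levels were 29.2, 45.3 and 60.0 CPM in Ctrl livers and 16.1, 56.1 and 118 CPM in ABpIF/+ livers, which spread on either side of Ctrl. In ABpIF/F livers it had 175, 724 and 1081 CPM in BG183, BG90 and BG38, above all other mice but 6.17-fold apart among themselves. The log2 fold change was 0.61 ± 0.49 in ABpIF/+ vs Ctrl (adjusted p = 0.482), 3.91 ± 0.58 in ABpIF/F vs Ctrl, a 15.1-fold increase (adjusted p = 0.000375), and -3.30 ± 0.58 in ABpIF/+ vs ABpIF/F (adjusted p = 0.00138). The last call was lost without BG38 (-2.75, adjusted p = 0.012).

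Promoter sequences of RefSeq on GRCm38.p6 were held for 6 of the 9 genes, *Krt7*, *Krt23*, *Epcam*, *Spp1*, *Sox4* and *Muc1*. The windows shown are those that held a motif match. They belong to *Spp1* and *Sox4*, which were called higher in ABpIF/F vs Ctrl, and to *Muc1*, which was called lower in ABpIF/+ vs Ctrl. *Krt23* and *Epcam* were also called higher in ABpIF/F vs Ctrl, but their windows held no match and are not shown. Each has the 250 bases before a start site, 5′ to 3′ on the strand of the gene, at chr5:104434861-104435110 (+ strand), chr13:28953700-28953949 (- strand) and chr3:89228806-89229055 (+ strand). Capitals mark matches on either strand to any of 6 short motifs, which are known as AP-1, TEAD, SOX, ETS, RBPJ and TATA motifs and are spelled out after the windows.
Spp1: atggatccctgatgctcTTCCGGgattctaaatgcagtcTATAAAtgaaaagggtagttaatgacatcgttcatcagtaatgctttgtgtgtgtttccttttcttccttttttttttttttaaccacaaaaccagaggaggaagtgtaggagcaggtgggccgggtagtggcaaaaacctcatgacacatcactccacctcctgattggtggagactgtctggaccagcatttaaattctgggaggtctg
Sox4: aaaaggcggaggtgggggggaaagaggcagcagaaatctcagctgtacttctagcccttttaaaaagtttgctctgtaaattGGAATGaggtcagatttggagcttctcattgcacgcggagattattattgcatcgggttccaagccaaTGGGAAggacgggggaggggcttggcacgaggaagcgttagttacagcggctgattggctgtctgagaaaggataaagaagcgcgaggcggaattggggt
Muc1: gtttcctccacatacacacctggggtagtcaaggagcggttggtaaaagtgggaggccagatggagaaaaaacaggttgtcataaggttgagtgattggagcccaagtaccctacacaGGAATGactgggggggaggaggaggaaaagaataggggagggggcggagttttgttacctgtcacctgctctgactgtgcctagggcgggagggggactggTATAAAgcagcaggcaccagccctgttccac

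In these windows *Spp1* held an ETS and a TATA match, *Sox4* a TEAD and an RBPJ match, and *Muc1* a TEAD match and a TATA match that ended 26 bases before the start. The AP-1 letters searched on both strands were TGANTCA, which 6.75% of all 32851 promoter windows held. The letters GGAATG were taken for TEAD factors of the Hippo pathway and were held by 12.6% of these windows. For SOX factors the search used AACAAT, with matches in 9.42% of the windows, and for ETS factors, which act downstream of ERK, it used CCGGAA, with matches in 12.0% of them. RBPJ, the factor of the Notch pathway that directs bile duct formation, was represented by TGGGAA, found in 21.6% of all windows. The TATA box was searched as TATAAA and found in 12.4% of all windows. The windows of *Krt7*, *Krt23* and *Epcam* and a second window of *Spp1* held none of these letters. No matches of 2 motifs overlapped in the windows shown. A match describes letters in a window and was not tested as a binding site.

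**Figure D2:**
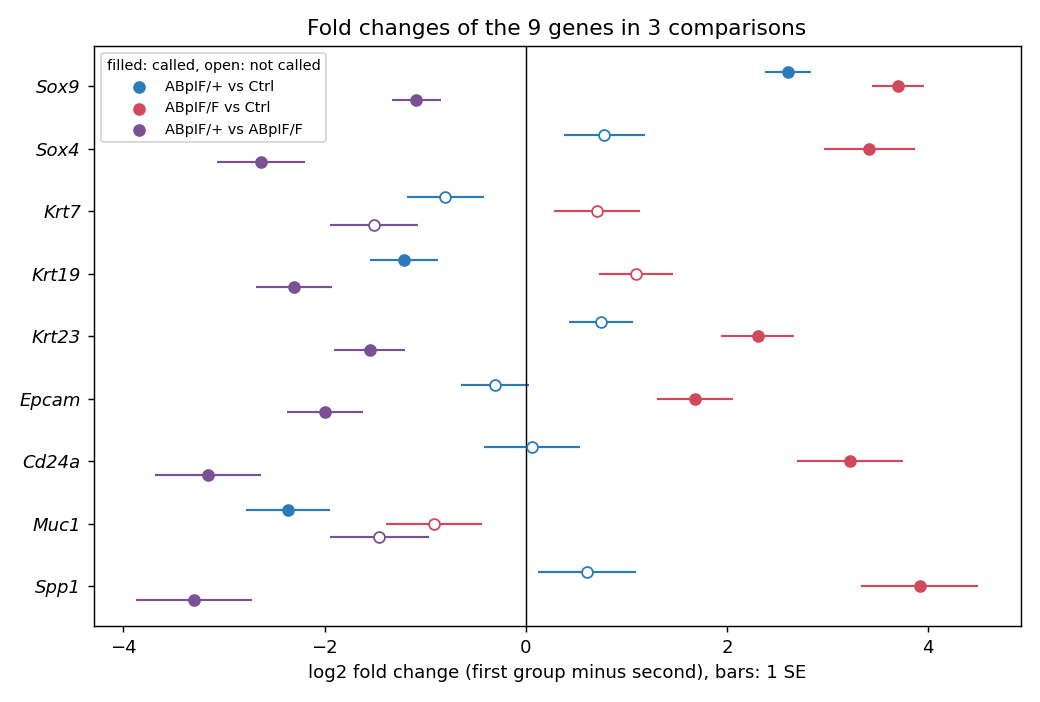
Log2 fold changes of the 9 genes in ABpIF/+ vs Ctrl, ABpIF/F vs Ctrl and ABpIF/+ vs ABpIF/F, with bars of 1 SE; filled points were called. *Sox9* lies at 2.61 and 3.70 against Ctrl, and *Muc1* at -2.37 in ABpIF/+ vs Ctrl.

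Of the 9 genes, 1 was called higher and 2 lower in ABpIF/+ vs Ctrl, where 4.69% of all 27179 genes were called higher and 5.35% lower. Among 12316 genes that reached 1 CPM on average these were 8.21% and 9.39%, and the counts of 1 and 2 among 9 genes lie near that background. In ABpIF/F vs Ctrl 6 of 9 were called higher and 0 lower by edgeR, against 4.55% and 2.38% of all genes and 7.53% and 5.04% of those reaching 1 CPM. Among the 3 uncalled genes *Krt19* and *Krt7* had positive and *Muc1* negative fitted changes. In ABpIF/+ vs ABpIF/F 7 of 9 were called lower and 0 higher, against 5.49% and 1.76% of all genes and 8.5% and 3.72% of those with at least 1 CPM. The median log2 fold change of the 9 genes was 0.06, 2.30 and -1.99 in the 3 comparisons, beside 0.017, -0.00077 and 0.038 over genes with at least 1 CPM.

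These counts rest on few mice. In ABpIF/+ vs ABpIF/F the count was 3 without BG38 and 3 when only these groups were fitted. With the clock score as a covariate edgeR called 1 of 9 genes in ABpIF/F vs Ctrl, *Sox9*, where 7 had an unadjusted p under 0.05 and DESeq2 with the same covariate, tried after the data had been seen, called 4. The fitted log2 fold changes of the genes that lost their call were then 3.36 for *Spp1*, 3.26 for *Cd24a*, 2.93 for *Sox4*, 1.90 for *Krt23* and 1.45 for *Epcam*. With this covariate edgeR called 0 of 9 in ABpIF/+ vs ABpIF/F, where 6 had an unadjusted p under 0.05 and DESeq2 called 2. With BG3 as the lone Ctrl mouse, 1 of 9 was called in each comparison with Ctrl, again *Sox9*.

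The 3 ABpIF/F mice came in the same order for most of the genes. BG38 was the highest ABpIF/F mouse for 8 of the 9 genes, and the order from BG183 through BG90 to BG38 was found for 7 of 9, the exceptions being *Krt23* and *Muc1*. Among ABpIF/+ mice BG55 was lowest for 6 of 9, and the highest level was spread over 4 mice. *Sox9* varied 2.13-fold from the lowest to the highest ABpIF/+ mouse, compared with 7.32-fold for *Spp1* and 11.5-fold for *Cd24a*.

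Within a library, *Sox9* and the duct keratin went apart. The ratio of *Sox9* to *Krt19* counts was 1.12 to 4.80 in Ctrl mice, with a median of 2.04. It was 18.4 to 147 in ABpIF/+ mice, with a median of 23.2, and 10.8 to 18.4 in ABpIF/F mice. The ratio of *Sox9* to *Spp1* was 0.0417 to 0.132 in Ctrl, 0.147 to 0.731 in ABpIF/+ and 0.0455 to 0.130 in ABpIF/F mice, so that ABpIF/F mice lay within the range of Ctrl. A ratio within a library does not depend on the scaling between libraries, and it shows unequal change of 2 genes.

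**Figure D3:**
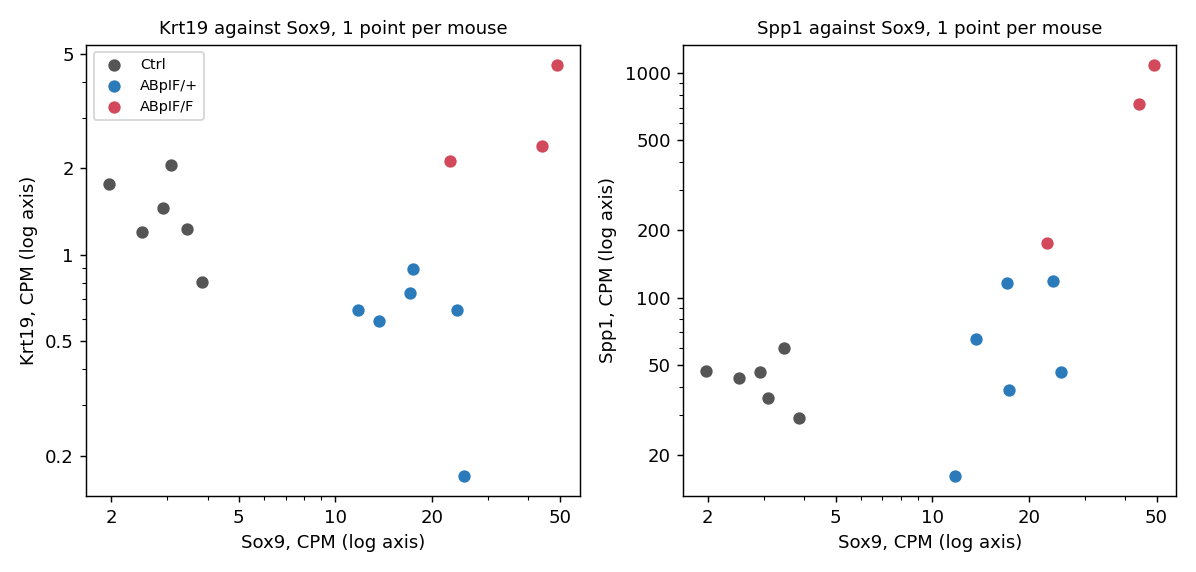
*Krt19* (left) and *Spp1* (right) against *Sox9* in each of the 15 mice, in CPM on log axes, coloured by group. ABpIF/+ mice have 11.8 to 25.1 CPM of *Sox9* with 0.171 to 0.890 CPM of *Krt19*, and the 3 ABpIF/F mice lie above all other mice on both vertical axes.

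Markers of other cell types moved with several of these genes. The 8 stellate cell and fibroblast markers had summed levels of 146 to 211 CPM in Ctrl, 40.8 to 86.5 in ABpIF/+ and 137 to 225 in ABpIF/F livers, and 6 of 8 were called lower in ABpIF/+ vs Ctrl. The 4 B cell markers summed to 2.01 to 4.31 CPM in Ctrl, 0.121 to 1.98 in ABpIF/+ and 3.39 to 7.51 in ABpIF/F livers, with 2 of 4 called lower in ABpIF/+ vs Ctrl. The lower levels of *Krt19* and *Muc1* in ABpIF/+ livers were thus found together with lower stellate cell, fibroblast and B cell markers. Not all non-hepatocyte markers were lower there. Neutrophil and red cell markers had median sums of 2.73 and 168 CPM in ABpIF/+ livers, against 1.02 and 64.0 CPM in Ctrl. Both sums overlapped between these groups. Of the neutrophil markers 0 of 6 were called higher in ABpIF/+ vs Ctrl, and of the red cell markers 1 of 5. Of 5 cycling cell markers, 4 were called lower in ABpIF/+ vs Ctrl and 0 in ABpIF/F vs Ctrl. For scale, 9.39% of all genes reaching 1 CPM were called lower and 8.21% higher in ABpIF/+ vs Ctrl. In ABpIF/F vs Ctrl these shares were 5.04% and 7.53%, and they are to be set beside the counts of all marker lists.

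Of 8 macrophage markers, 3 were called higher and 3 lower in ABpIF/+ vs Ctrl. The list summed to 284 to 401 CPM in Ctrl and 173 to 244 CPM in ABpIF/+ livers, and to 292, 502 and 633 CPM in BG183, BG90 and BG38. The 3 called higher were *Gpnmb*, *Trem2* and *Cd9*, genes of macrophages that take up lipid and debris, and the same 3 were called higher in ABpIF/F vs Ctrl. The Kupffer cell markers *Adgre1* and *Clec4f* were called lower in ABpIF/+ vs Ctrl, and were not called in ABpIF/F vs Ctrl, with means of 20.4 and 137 CPM against 17.8 and 129 CPM. The 6 neutrophil markers summed to 0.777 to 2.05 CPM in Ctrl, 1.85 to 7.96 in ABpIF/+ livers, and 2.51, 25.7 and 81.9 CPM in BG183, BG90 and BG38, with 5 of 6 called higher in ABpIF/F vs Ctrl. Macrophage and neutrophil markers thus had the order of the ABpIF/F mice found for 7 of the 9 genes, among them *Spp1* and *Cd24a*. This order was not particular to them, as the sums of red cell, mesothelial and cycling cell markers had it too. Stellate cell and fibroblast, B cell and pancreas markers did not. Hepatocyte markers had the reverse order, with 219804, 187626 and 125770 CPM in BG183, BG90 and BG38. No gene of the macrophage list was at 0 in all mice of a group, and of the neutrophil list 1 was so in Ctrl, *Ly6g*. Of 5 red cell markers 0 were called in ABpIF/F vs Ctrl, with summed levels of 32.7 to 151 CPM in Ctrl, 73.4 to 237 in ABpIF/+ and 63.8 to 113 in ABpIF/F livers. Markers of mesothelial cells, which also carry keratins 7 and 19, summed to 1.34 to 6.96 CPM in Ctrl, 0.171 to 10.2 in ABpIF/+ and 3.10 to 8.61 in ABpIF/F livers, and 0 of 4 were called in any of the 3 comparisons by edgeR. Of 6 pancreas markers 4 were at 0 in all Ctrl mice and 2 in all ABpIF/F mice. The part of these cells in the levels of the 9 genes was not tested.

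**Figure D4:**
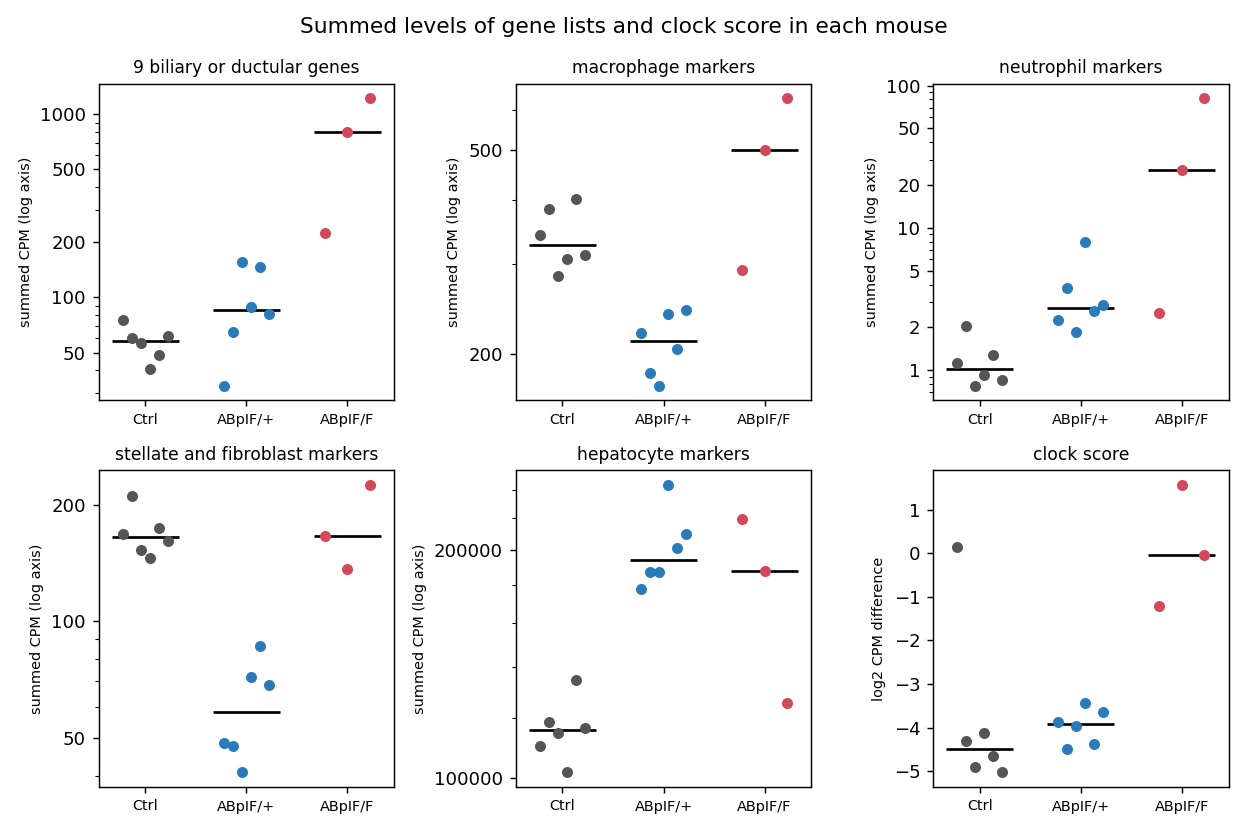
Summed CPM of the 9 genes and of 4 marker lists (log axes), and the clock score (linear axis, log2 CPM difference), in each mouse; lines are medians. Summed levels of the 9 genes are 223 to 1226 CPM in ABpIF/F and 32.9 to 156 CPM in ABpIF/+ livers, and stellate markers are lowest in ABpIF/+ livers.

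Another 40 genes in 6 lists, most of them of the bile duct or of ductular cells, were also called more often towards higher levels in ABpIF/F livers. Of their 15 higher calls in ABpIF/F vs Ctrl, 9 came from the list of 11 ductular and progenitor surface genes. The lists also hold 4 other keratins, among them *Krt8* and *Krt18* of hepatocytes, and 4 relatives of *Sox9* or *Sox4*. Of the 40 genes, 7 were called higher and 4 lower in ABpIF/+ vs Ctrl, 15 higher and 2 lower in ABpIF/F vs Ctrl, and 1 higher and 13 lower in ABpIF/+ vs ABpIF/F. Their median log2 fold changes were 0.23, 1.16 and -1.16, or 0.04, 0.97 and -1.13 with a gene whose mice in 1 group all had 3 counts or fewer set to that bound, or left out where both groups were that low. Without BG38 the calls in the last 2 comparisons numbered 11 and 8 in all. With the clock score as a covariate edgeR made 3 and 1 calls and DESeq2 9 and 6, and 18 genes had an unadjusted p under 0.05 by edgeR in each. The 4 of 40 genes called lower in ABpIF/+ vs Ctrl and the 2 of 40 in ABpIF/F vs Ctrl lie near the 9.39% and 5.04% of all genes reaching 1 CPM that were called lower there, beside 8.21% and 7.53% called higher. In ABpIF/+ vs ABpIF/F 8.5% of such genes were called lower and 3.72% higher, and these shares are also those to set beside the counts of the 6 lists.

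**Figure D5:**
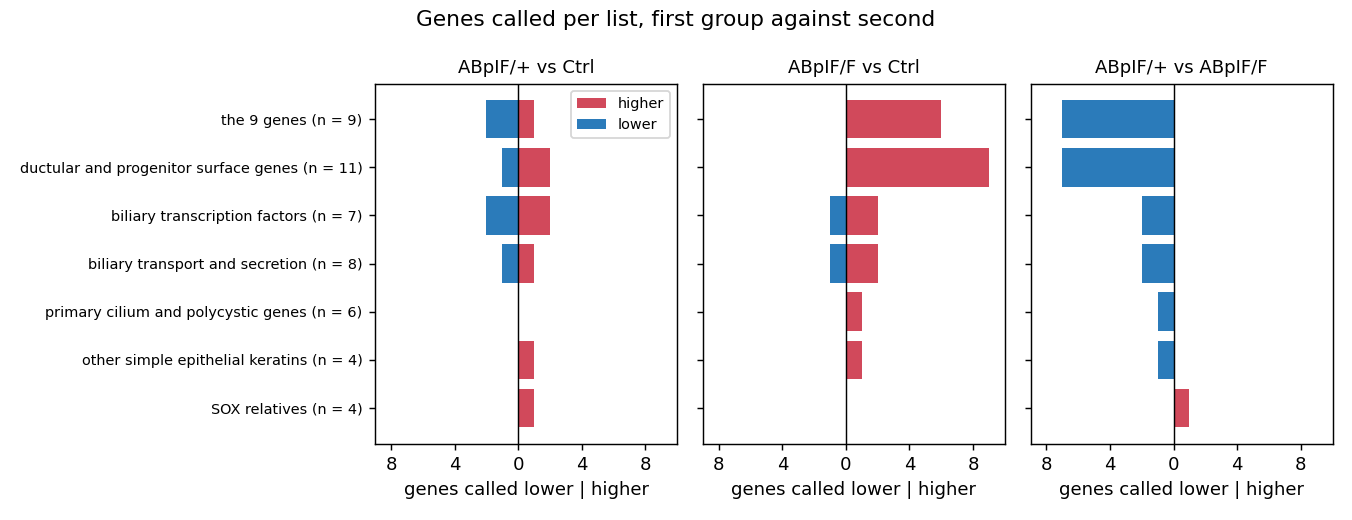
Numbers of genes called higher (right of 0) and lower (left of 0) in 3 comparisons, for the 9 genes and for 6 further lists with their sizes. The lists hold bile duct and ductular genes, other keratins and SOX relatives. Ductular and progenitor surface genes account for 9 of the 15 genes called higher in ABpIF/F vs Ctrl outside the 9.

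Among 11 ductular and progenitor surface genes, 9 were called higher and 0 lower in ABpIF/F vs Ctrl, and 2 higher and 1 lower in ABpIF/+ vs Ctrl. *Tnfrsf12a*, the receptor for the cytokine TWEAK that drives ductular reactions, rose in both mutant groups, from 5.00 ± 1.64 CPM in Ctrl to 65.0 ± 18.3 in ABpIF/+ and 37.5 ± 18.8 in ABpIF/F livers (log2 fold changes of 3.70 ± 0.30 and 2.91 ± 0.32, adjusted p = 1.88e-07 and 1.24e-05). Like *Sox9* it did not overlap with Ctrl in either group, but its difference between the mutant groups was not called (0.80 ± 0.33, adjusted p = 0.123). *Tspan8*, a tetraspanin of epithelial surfaces, rose from 0.793 ± 0.440 CPM in Ctrl to 3.44 ± 1.13 in ABpIF/+ and 34.2 ± 26.5 in ABpIF/F livers, with 8.68, 32.5 and 61.6 CPM in BG183, BG90 and BG38. Its call in ABpIF/+ vs Ctrl (log2 fold change 2.13 ± 0.51, adjusted p = 0.00589) was lost without malpa454, malpa458, malpa459, malpa462, BG40, BG31, BG175 or BG30, at 2.22, 2.01, 2.04, 1.94, 2.07, 2.03, 2.04 and 2.14.

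*Cd44*, a receptor for hyaluronan on progenitor and immune cells, fell in ABpIF/+ vs Ctrl (log2 fold change -1.32 ± 0.31, adjusted p = 0.00371), a call lost without BG55 (-1.26) or BG40 (-1.23). Its levels were 8.27 ± 1.29 CPM in Ctrl, 3.30 ± 1.28 in ABpIF/+ and 16.2 ± 11.4 in ABpIF/F livers. *Cdh1*, the E-cadherin gene that hepatocytes around portal tracts and ducts share, had 40.5 ± 15.0, 62.7 ± 12.4 and 158 ± 3.40 CPM. It was called higher in ABpIF/F vs Ctrl (1.96 ± 0.25, adjusted p = 1.94e-05), and this call also held with the clock score as a covariate (2.63, adjusted p = 0.000327) and with BG3 as the lone Ctrl mouse (2.95, adjusted p = 2.83e-05). *Cldn7*, a tight junction gene of ducts, rose in ABpIF/F vs Ctrl as well (2.59 ± 0.35, adjusted p = 1.42e-05).

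Of 7 transcription factors of the biliary lineage, 2 were called higher and 2 lower in ABpIF/+ vs Ctrl. *Onecut2*, a liver and bile duct factor of early development, fell in both mutant groups, from 121 ± 30.3 CPM in Ctrl to 32.1 ± 8.70 in ABpIF/+ and 39.5 ± 15.7 in ABpIF/F livers (log2 fold changes of -1.92 ± 0.22 and -1.62 ± 0.28, adjusted p = 2.32e-06 and 0.0004). Neither call was kept with BG3 as the lone Ctrl mouse (-1.33 and -1.07, adjusted p = 0.0341 and 0.131), nor the second with the clock score as a covariate (-1.19, adjusted p = 0.0785).

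The epithelial ETS factor genes went 2 ways. *Elf3* had 0.471 ± 0.248 CPM in Ctrl, 1.21 ± 0.560 in ABpIF/+ and 3.24 ± 1.15 in ABpIF/F livers and was called higher in both comparisons with Ctrl (log2 fold changes of 1.33 ± 0.37 and 2.76 ± 0.41, adjusted p = 0.00896 and 4.07e-05). The call in ABpIF/+ vs Ctrl lay at the threshold and was lost without malpa387, BG3, malpa459, malpa462, BG55, BG40, BG31, BG30 or BG90, at 1.19, 1.21, 1.29, 1.30, 1.32, 1.24, 1.11, 1.40 and 1.34. *Ehf* fell in ABpIF/+ vs Ctrl (-2.08 ± 0.46, adjusted p = 0.00129) and was not called in ABpIF/F vs Ctrl (0.77 ± 0.47, adjusted p = 0.341), with 0.893 ± 0.278, 0.210 ± 0.143 and 1.53 ± 0.858 CPM in the 3 groups. *Grhl2*, an epithelial junction regulator, was called in ABpIF/+ vs ABpIF/F (-3.11 ± 0.82, adjusted p = 0.00955), on 0 to 6 counts per ABpIF/+ mouse, a call lost without any of 11 mice, with values from -3.23 to -2.30. In ABpIF/F vs Ctrl the form of edgeR 4 called it (2.13, adjusted p = 0.00931) and the test used here did not.

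Of 8 genes of biliary transport and secretion, 2 were called higher in ABpIF/F vs Ctrl, *Cftr* and *Sctr*. *Cftr*, the chloride channel of duct cells, had 0.189 ± 0.0963 CPM in Ctrl and 0.0882 ± 0.0635 in ABpIF/+ livers, and 1.08, 1.29 and 2.94 CPM in BG183, BG90 and BG38. All 3 ABpIF/F mice stood above all others (log2 fold change 3.18 ± 0.53 vs Ctrl, adjusted p = 0.000131; -4.24 ± 0.57 in ABpIF/+ vs ABpIF/F, adjusted p = 2.28e-05), while *Cftr* was not called in ABpIF/+ vs Ctrl (adjusted p = 0.207). *Sctr*, the secretin receptor of duct cells, had 0 to 12 counts in Ctrl mice and 15 to 117 in ABpIF/F mice (log2 fold change 4.19 ± 0.84, adjusted p = 0.00124), a call lost without BG38 (3.45, adjusted p = 0.0194).

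The chloride channel gene *Ano1* fell in both mutant groups, from 2.87 ± 0.751 CPM in Ctrl to 0.426 ± 0.244 in ABpIF/+ and 0.991 ± 0.267 in ABpIF/F livers (log2 fold changes of -2.72 ± 0.33 and -1.53 ± 0.39, adjusted p = 1.14e-06 and 0.00723). The second of these calls was lost without BG3, malpa454, malpa458, malpa462, BG183, BG90 or BG38, at -1.50, -1.42, -1.47, -1.55, -1.32, -1.67 and -1.62. *Ggt1*, the gamma-glutamyl transferase gene of duct cells and fetal hepatocytes, rose in ABpIF/+ vs Ctrl from 0 to 4 counts per mouse to 14 to 25 (3.16 ± 0.56, adjusted p = 0.000156). In ABpIF/F vs Ctrl it was not called (2.09 ± 0.66, adjusted p = 0.0293), and was called without BG183 (2.56, adjusted p = 0.00627) and by DESeq2 (2.16, adjusted p = 0.00896).

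Of 6 genes of the primary cilium and polycystic liver disease, 0 were called by edgeR in ABpIF/+ vs Ctrl and 1, *Bicc1*, in ABpIF/F vs Ctrl. *Bicc1*, an RNA-binding protein gene of tubular epithelia, had 2.23 ± 0.988 CPM in Ctrl, 4.79 ± 3.09 in ABpIF/+ and 18.5 ± 15.4 in ABpIF/F livers (3.05 ± 0.53 in ABpIF/F vs Ctrl, adjusted p = 0.000985). *Pkhd1*, which encodes the duct cilium protein fibrocystin, was called lower in ABpIF/+ vs ABpIF/F (-1.73 ± 0.24, adjusted p = 4.7e-05), with 10.8 ± 2.42, 5.86 ± 1.62 and 19.5 ± 7.55 CPM in Ctrl, ABpIF/+ and ABpIF/F livers. It missed the 2-fold limit in ABpIF/+ vs Ctrl (-0.88 ± 0.21, adjusted p = 0.00294) and passed it without BG175 (-1.04).

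Of the keratins that hepatocytes share with duct cells, *Krt18* rose in both mutant groups, from 89.8 ± 27.0 CPM in Ctrl to 211 ± 19.4 in ABpIF/+ and 204 ± 37.5 in ABpIF/F livers (log2 fold changes of 1.23 ± 0.16 and 1.18 ± 0.19, adjusted p = 3.68e-06 and 8.74e-05), whereas its partner *Krt8* was called in no comparison by this test, with 199 ± 32.8, 158 ± 12.3 and 273 ± 39.2 CPM. With BG3 as the lone Ctrl mouse the changes of *Krt18* were under 2-fold (0.83 and 0.74, adjusted p = 0.047 and 0.0996), as was that in ABpIF/F vs Ctrl with the clock score as a covariate (0.60, adjusted p = 0.183). The fitted changes of *Krt8* had the signs of those of *Krt7* and *Krt19* in all 3 comparisons. The 3 ABpIF/F mice lay above all ABpIF/+ mice in *Krt8*, under the 2-fold limit (-0.79 ± 0.15, adjusted p = 0.000604). *Krt80* was called lower in ABpIF/+ vs ABpIF/F (-3.27 ± 0.75, adjusted p = 0.00333) and lost this call without BG38 (-2.36, adjusted p = 0.0864).

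Of 4 SOX genes related to *Sox9* or *Sox4*, *Sox12* was called. It had 5.66 ± 0.952 CPM in Ctrl, 11.5 ± 1.78 in ABpIF/+ and 5.51 ± 0.695 in ABpIF/F livers, and was thus higher in ABpIF/+ than in either other group (log2 fold changes of 1.02 ± 0.15 vs Ctrl and 1.06 ± 0.19 vs ABpIF/F, adjusted p = 1.23e-05 and 0.000323). The first was under 2-fold without BG3, malpa458, BG55 or BG31 (0.99, 0.95, 0.97 and 0.97), and the second without BG90 (0.96). *Sox10* had no count in any mouse.

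Per kilobase of exon, on the scale of CPM divided by the union exon length of GENCODE M21, *Spp1* was the most abundant of the 9 genes in every group, at 26.6 in Ctrl, 40.6 in ABpIF/+ and 400 in ABpIF/F livers. *Sox9* took the sixth place in Ctrl, at 0.716, where the ranges of all neighbours from *Krt23* (0.981) down to *Krt7* (0.121) overlapped. It took the second place in ABpIF/+ livers, at 4.39, with no overlap with *Spp1* above or *Krt23* (1.65) below. In ABpIF/F livers it was also second, at 9.35, and overlapped with *Cd24a* (7.04). *Krt7* was last in all 3 groups, but overlapped with *Muc1* in both mutant groups. Its union exon length of 7049 bases was the longest of the 9 genes, and its place depends on this length. Before division by length its mean was above that of *Muc1* in ABpIF/+ (0.486 and 0.221 CPM) and ABpIF/F livers (1.39 and 0.619 CPM).

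The genes whose log2 CPM followed *Sox9* most closely over the 15 mice were *Smo*, *Klrb1b*, *B4galt6*, *Dab1* and *Meltf*, with Pearson's r of 0.975, 0.974, 0.972, 0.971 and 0.971 among 12210 genes. The mice of a group share its genotype, so these values mostly describe the steps between groups. After subtraction of the group means r was between 0.470 and 0.746 for the 5 genes. Over all mice those of the 9 genes that reached 1 CPM had r with *Sox9* of 0.770 for *Sox4*, 0.760 for *Krt23*, 0.668 for *Spp1*, 0.540 for *Cd24a*, 0.341 for *Epcam* and -0.029 for *Krt19*.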

How the data were processed

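RNA was prepared from the livers of 15 mice with a stranded polyA kit. Per the labels, the authors aligned reads to mm10 with HISAT2 (listed as version 2.21) and counted them per gene with featureCounts 2.0.8, and deposited raw counts. The strand setting and annotation of the counting are not given in the sources used here, so reads of overlapping antisense genes cannot be told apart, and keratin genes of similar sequence may share reads. The labels list 23 samples for 15 mice, 8 of them named by 2 samples; 1 column per mouse was used, and a mouse was 1 replicate. The second of the deposited tables held identical counts in 10 columns, and its 5 others were not used. The deposited fold changes and p-values of the authors' own comparisons were not used.

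Counts of all 27179 genes, 24742910 to 32262649 per mouse, were fitted once with 3 groups (edgeR 4.0.16 in R 4.3.3, TMM, robust quasi-likelihood F-test in the form of edgeR 3). P-values were adjusted by Benjamini-Hochberg over all genes. Calls needed an adjusted p below 0.01 together with a log2 fold change of 1 or more in size. CPM values are scaled by TMM, and log2 CPM uses a prior count of 2. Named genes were the 9 genes, up to 5 called genes of each further list in order of adjusted p in ABpIF/+ vs Ctrl, *Cftr*, *Krt8*, *Krt18*, *Icmt*, any marker gene and the 5 genes most like *Sox9*; *Sox10* was named after its counts were seen. A gene of the further lists that this rule would name is not reported here and enters only their counts. The 9 genes and all lists were chosen with earlier results of these data known. Scripts were tested on simulated data. Alternatives were DESeq2 1.42.0, other scalings, filters and thresholds, each mouse left out, the strain text and a clock score. At this depth 3 counts were taken as the floor of detection.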

Additional observations from a re-analysis of the deposited data

Results flagged for a closer look

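*Krt23* in Ctrl mouse malpa387, at 2.46 CPM, stood further from the other 5 Ctrl mice than Dixon's criterion at the 95% level allows. This was 1 of 18 tested groups of 6 mice, and chance flags about 1 group in 20. The same mouse had the clock score of 0.132, apart from the other Ctrl mice. It was the highest Ctrl mouse for 3 of the 9 genes, *Krt23*, *Spp1* and *Sox4*, and the lowest for 1, *Muc1*. A link between clock score and these levels was not tested in this mouse. The ABpIF/F group, with 3 mice, was not tested.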

How the results depend on the processing

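Each log2 fold change was refitted under 25 alternatives, 15 of which left out a mouse. Of 675 such values of the 9 genes, 615 kept their direction and their side of the threshold, 52 lost the call, 6 gained it and 2 turned sign. Of 1500 values of the 20 other named genes these numbers were 1356, 105, 25 and 14. In ABpIF/+ vs Ctrl the fit on mice with the strain text of the mutants, where BG3 is the lone Ctrl mouse and is assumed to vary like the other groups, called 1 of the 9 genes in place of 3 and 3 further biliary genes in place of 11, of which a limit of 2 on the log2 scale left 5. In ABpIF/F vs Ctrl, against 6 and 17, the strain fit called 1 and 2, the clock covariate 1 and 3, and the limit of 2 left 10 further genes. In ABpIF/+ vs ABpIF/F, against 7 and 14, the limit of 2 left 4 and 9, and the clock covariate left 0 and 1. The fit on these groups alone called 3 of the 9 genes. The strain fit also called fewer of them, but it leaves out only Ctrl mice and cannot show a part of strain in this comparison. Leaving out a mouse gave 2 to 3, 5 to 6 and 3 to 8 of the 9 genes in the 3 comparisons and 8 to 11, 11 to 19 and 8 to 15 further genes. The lowest counts of the last comparison came without BG38. The clock fit lost all but *Sox9* of the calls in ABpIF/F vs Ctrl among the 9 genes by edgeR, with log2 fold changes of 1.45 to 3.36 for the 5 others, and DESeq2 with this covariate, added after seeing the data, called 4 of 9; the cause was not tested. Some of the other named genes also lost their calls in ABpIF/F vs Ctrl in both the strain and the clock fit. These were *Tnfrsf12a*, *Tspan8*, *Cldn7*, *Cftr*, *Sctr*, *Bicc1*, *Ano1*, *Onecut2* and *Krt18*.

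The sign turned only for changes that were not called, among the values refitted. In ABpIF/+ vs Ctrl leaving out a mouse gave -0.19 to 0.29 for *Cd24a* (-0.06 without BG31) and -0.25 to 1.78 for *Sctr* (-0.09, -0.03, -0.13 and -0.11 without BG3, malpa454, malpa458 and malpa462), and the strain fit gave 0.30 for *Grhl2*, 0.13 for *Cftr* and -0.089 for *Icmt*. In ABpIF/F vs Ctrl leaving out a mouse gave -0.12 to 0.055 for *Sox12*, which was above 0 without malpa459 (0.039) or BG90, at 0.052 in the strain fit and at 0.083 with the clock score. In ABpIF/+ vs ABpIF/F leaving out a mouse gave -0.53 to 0.056 for *Onecut2* (the highest without BG38) and -0.096 to 0.14 for *Krt18* (the lowest without BG183).

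No paired analysis was possible because the replicate numbers only name the mice in accession order and pair none across groups. The second table was not run separately, since its usable columns held identical counts. The ABpIF/F group had 3 mice, and *Krt7*, *Muc1*, *Grhl2*, *Sctr* and *Krt80* were among the genes with few counts. *Spp1* and *Cd24a* had more counts in ABpIF/F mice but spread widely among them, which also limits precision. A difference that was not called was not detectable at this depth rather than absent. Strain text and genotype overlap in all but BG3, and clock score and ABpIF/F in all but malpa387. Tumors elsewhere in the liver also go with ABpIF/F, and their part was not tested.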
